A study of Mus musculus with 8 samples.

Results

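Large intergenic noncoding RNAs (lincRNAs) were measured in mouse hippocampus as strand-resolved probe regions, each a stretch of the genome covered by array probes of one strand that lie within 10 kb of each other. The array carried 16251 lincRNA probes among its 55681 probes. Of these, 118 had no coordinates and 54 lay in a window of chromosome 7 that is left out of the regions here, which left 16079. A probe was a member when its signal was well above background (the scanner software's flag) on 4 or more of 8 arrays, and 4947 probes met this. They joined into 2020 regions, of 3887 regions that the same joining gave with no such filter. The choice of members used the signal over all 8 arrays and no comparison between the groups.

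LincRNAs are long transcripts, often spliced and polyadenylated, that hold no long open reading frame and lie between protein-coding genes. Some act in the nucleus, as Malat1 in nuclear speckles and Neat1 as the scaffold of paraspeckles, others host microRNAs, and many are transcribed from the same promoter as a neighbouring gene but from the opposite strand. The brain expresses many of them, and for most of those on the array no function is known.

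The 8 samples were total RNA from hippocampi of female C57BL6/J mice aged 8 weeks, all housed under environmental enrichment, with objects and room to explore, for 4 weeks. One group of 4 received a control antibody and the other group of 4 an anti-CD4 antibody, whose target marks helper T lymphocytes, and their source label reads CD4 depleted. RNA was labelled with Cy3 and read on one-colour Agilent arrays of 60-base probes. No label says whether the samples were separate mice, so the p-values rest on a spread that may be technical. All 8 arrays were on one slide with each group in its own row, so slide row and treatment cannot be told apart. All values are log2 signal relative to the 75th percentile of the array, and every difference is anti-CD4 minus control on that scale. In whole hippocampus, fewer cells of a type and less RNA per cell cannot be told apart.

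Between 28.8% and 33.3% of lincRNA spots were well above background per array, against 52.3% to 55.4% of all spots, and no spot was saturated. All 6 markers of CA pyramidal neurons, the principal cells of the hippocampus, were measured. The 8 markers of choroid plexus, the tissue that makes cerebrospinal fluid, had a mean log2 level between -2.26 and 3.18 in the control samples and between -1.39 and 3.68 in the anti-CD4 samples. The 4 red blood cell markers had a median difference of 0.56. Of 7 T lymphocyte markers 3 were measured, with a median difference of 0.02.

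Of the 2020 regions, 951 held 1 tested probe, 1069 held 2 or more and 70 held 8 or more, with a maximum of 17. Regions of 2 or more probes had a median length of 448 bases, and the longest spanned 26959 bases. The plus strand held 1014 regions and the minus strand 1006. On all 8 arrays 1746 regions were detected. The coordinate order gave the same strand as the probe description for all 16133 probes that have one. The word intergenic did not hold for every region. In 112 regions a probe of a named gene on the same strand lay inside or overlapped the region. Among these genes were Pura, Hmbox1, Borcs8 and the ribosomal RNA locus of Rn18s. Noncoding RNA genes such as Malat1, Neat1 and Tug1 were among them too, so 112 is not a count of regions that are not intergenic. Regions are therefore called by position, and coordinates are those of the mm9 genome build, which the file headers name. Exons, introns and UTRs were not assigned, since no annotation of that build was used here.

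The probe sequences below, written 5′ to 3′ as deposited, belong to the regions on which the results turn. The first set shows both probes of the region with the smallest adjusted p, which was lower in the anti-CD4 group, the brightest probe of a 5-probe lower region on chromosome 1, the probe of largest difference in a lower region on chromosome X, and the single probe of the higher region with the smallest p, downstream of Klf9.
chr4:54940632-54940691 (-): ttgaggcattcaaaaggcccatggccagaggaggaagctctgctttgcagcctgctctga
chr4:54940868-54940927 (-): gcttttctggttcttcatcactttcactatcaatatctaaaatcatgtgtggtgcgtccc
chr1:139857084-139857143 (+): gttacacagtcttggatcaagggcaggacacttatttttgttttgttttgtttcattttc
chrX:54637434-54637493 (+): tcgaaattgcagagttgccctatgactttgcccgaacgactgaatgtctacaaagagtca
chr19:23255014-23255073 (+): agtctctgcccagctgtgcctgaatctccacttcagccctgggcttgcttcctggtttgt

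No region differed between the groups after adjustment. limma with Benjamini-Hochberg adjustment over all 26479 rows (2020 regions and 24459 other probes) called 0 regions at an adjusted p of 0.05, where the background over all rows was 0%. The other probes include lincRNA probes left out of the regions, 42 of the chromosome 7 window and 38 without coordinates. The smallest adjusted p of a region was 0.0860. At an unadjusted p under 0.05 there were 81 higher regions, or 4.01% of regions against 6.29% of all rows, and 168 lower regions, or 8.32% against 6.54%. Regions together came to 12.3%, against 12.8% of all rows, so their number was near the background while their split leaned to lower values. Between-group separation, in which no control sample overlaps an anti-CD4 sample, was found in 128 regions, or 6.34% against 8.12% of all rows. Of those, 35 were higher (1.73% against 3.95%) and 93 lower (4.6% against 4.17%). The median difference was -0.010 over regions and 0.010 over the other tested probes, and 47.3% of regions lay above 0 against 52.6% of other probes. This split depended on the scaling. In the main scaling 32.5% of the 249 regions with an unadjusted p under 0.05 were higher. Centring each array on its median gave 139 higher of 246 regions (56.5%) and a median of 0.024, with the other probes at 0.043. Quantile normalization gave 114 of 246 (46.3%), and normexp background correction 111 of 232 (47.8%). Without control sample 3 it was 125 of 246 (50.8%), and without anti-CD4 sample 2 it was 53 of 181 (29.3%). As single probes, 218 were higher, 4.41% of lincRNA probes against 5.98% of all probes, and 532 lower, 10.8% against 6.99%.

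The region with the smallest adjusted p was chr4:54940632-54940927 (-), with 2 probes, 116258 bases from the nearest named gene probe on the same strand. Its level was -2.61, -2.73, -2.77 and -2.70 in the 4 control samples and -3.42, -3.33, -3.28 and -3.57 in the 4 anti-CD4 samples. Every anti-CD4 sample lay below every control sample, which the rule that named the region required. The difference was -0.70 ± 0.08 (SE), 1.62-fold lower, with an adjusted p of 0.0860. Both probes, whose sequences share no overlap, showed it, at -0.73 and -0.66. Its adjusted p was 0.0432 without anti-CD4 sample 3, where it was the only region past 0.05, and ran up to 0.471 with the replicate number as a block. The difference was -0.34 in the authors' deposited log2 table and -0.41 with normexp background correction.

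The region chrX:54637273-54637638 (+) held 4 probes and lay 1916 bases from the nearest probe of Rbmx, which encodes an RNA-binding protein of the spliceosome and is on the opposite strand. Control samples were at 0.12, -0.12, -0.19 and -0.15 and anti-CD4 samples at -0.58, -0.77, -0.55 and -0.86, a difference of -0.60 ± 0.10 (adjusted p = 0.173). All 4 probes were lower, from -0.84 to -0.31, while the Rbmx probe differed by -0.05. The region chr1:139847960-139857143 (+) held 5 probes over 9184 bases. Its control samples were at -2.15, -2.15, -2.18 and -2.24 and its anti-CD4 samples at -2.62, -2.79, -2.47 and -2.73, a difference of -0.47 ± 0.08 (adjusted p = 0.173). All 5 probes lay between -0.59 and -0.37. The nearest gene probe on that strand, A430106G13Rik, is 9225 bases downstream and differed by -0.37 (adjusted p = 0.27), in the same direction as the region. Over the alternatives the chromosome X difference ran from -0.65 to -0.31 and the chromosome 1 difference from -0.59 to -0.22.

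In the other named lower regions every anti-CD4 sample also lay below every control sample, since separation was part of the rule that named them. The region chr17:10521984-10522172 (+) had control levels from -3.74 to -3.31 and anti-CD4 levels from -4.07 to -3.98, a difference of -0.54 ± 0.09. The region chr5:52527714-52527833 (-), 17463 bases downstream of the probe of the splicing helicase gene Dhx15, differed by -0.47 ± 0.08, and the Dhx15 probe by -0.21. The region chr10:39664519-39664578 (+), with 1 probe, differed by -0.44 ± 0.08, and chr5:26382314-26382433 (+) by -0.40 ± 0.07. These 4 regions had an adjusted p of 0.173, which is above the threshold.

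Among the higher regions, chr19:23255014-23255073 (+), 14545 bases downstream of the probe of Klf9, a transcription factor gene that responds to glucocorticoid and thyroid hormone, had the smallest adjusted p, 0.173. Its 1 probe was at -2.95, -3.03, -2.83 and -2.99 in the control samples and at -2.51, -2.57, -2.63 and -2.54 in the anti-CD4 samples, a difference of 0.39 ± 0.07. The Klf9 probe itself differed by -0.06. The region chr6:90937667-90938388 (-) held 3 probes, all higher, from 0.22 to 0.36. Its control samples were at -0.07, -0.23, 0.03 and -0.03 and its anti-CD4 samples at 0.23, 0.30, 0.16 and 0.20 (difference 0.30 ± 0.07, adjusted p = 0.238). The groups did not overlap in either region, which the rule that named them required. Over the alternatives the chromosome 19 difference ran from 0.13 to 0.43 and the chromosome 6 difference from 0.15 to 0.33.

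The region chr11:97520976-97521331 (+) had control samples from -1.61 to -1.49 and anti-CD4 samples from -1.36 to -1.0, a difference of 0.38 ± 0.09. The probes of Mllt6 and Pcgf2, both on its 3′ side at 25360 and 29829 bases, differed by 0.05 and -0.11. Regions of 1 probe on chromosomes 6, 1 and 13 were higher by 0.35 ± 0.08 (chr6:135299753-135299812), 0.30 ± 0.08 (chr1:87351659-87351718) and 0.83 ± 0.22 (chr13:44219663-44219722). On chromosome 13 the control samples spread from -3.05 to -1.94, so the largest of these differences also had the largest error. The region chr16:32325974-32326033 (-) was at 2.51 ± 0.15 (SD, n = 4) in control and 2.82 ± 0.06 in anti-CD4 samples. It overlaps a probe annotated to Timm17b, which encodes a subunit of the mitochondrial protein import channel. Whether that gene lies at this position was not checked. The annotated probe gave 0.32 beside 0.31 for the region, but it shares bases with the region's probe, so these values are not independent. None of these passed the threshold, with adjusted p from 0.230 to 0.256.

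**Figure D1:**
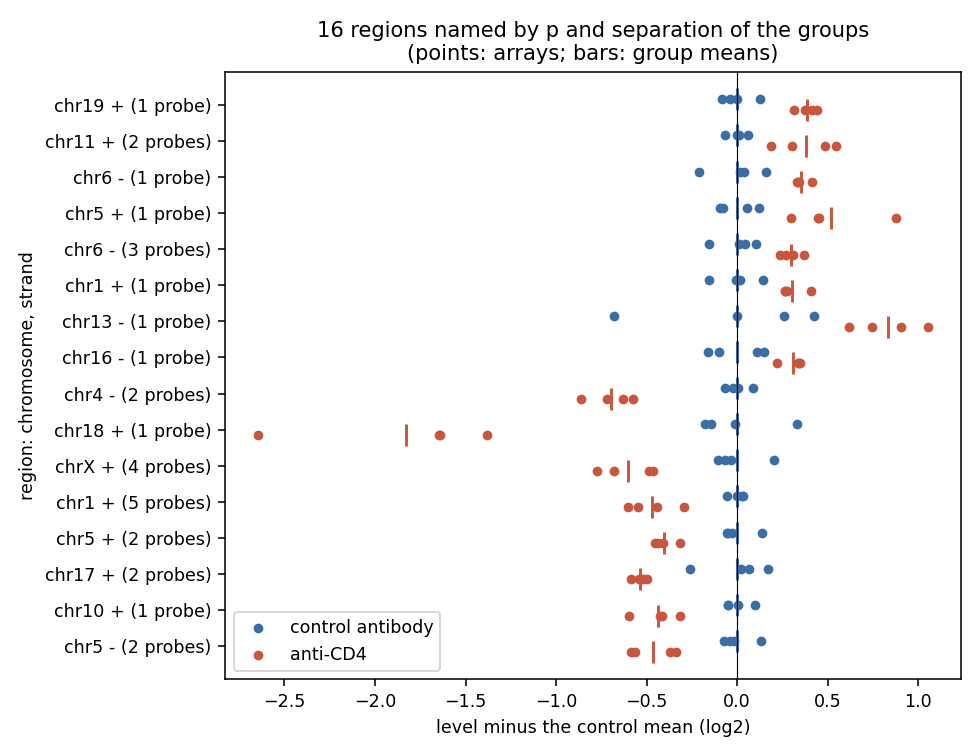
Level of each of 16 regions in each sample minus the region's control mean (log2, horizontal axis). Points are arrays, blue for control antibody and red for anti-CD4, and bars are group means. The groups do not overlap in any of the 16, since separation was part of the rule that named them, and the widest gap is that of the chromosome 18 region.

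Across all 2020 regions, 2 were detected in all samples of one group and in none of the other. Each met the filter of 4 or more arrays only through the group in which it was detected, so the pattern is partly a product of the selection. The share of all rows with such a pattern is not given here. The probe of chr18:60915318-60915377 (+), 22759 bases from the nearest probe of the ribosomal protein gene Rps14, was well above background on 4 control arrays and not well above background on the 4 anti-CD4 arrays. Control samples were at -3.86, -3.82, -3.69 and -3.35 and anti-CD4 samples at -5.06, -5.32, -5.32 and -6.32. Each dim array was then set at the higher of its lowest signal well above background and the probe's own signal. In the main scaling this bound put control samples 1.65-fold higher (adjusted p = 0.169 for the measured values). Over the alternatives the measured difference ran from -1.99 to -0.35, so the bound did not hold in all of them. The probe of chr5:22088228-22088287 (+) showed the reverse. Control samples ran from -4.49 to -4.28, not well above background, and anti-CD4 samples from -4.10 to -3.52. The same bound in the main scaling was 1.33-fold (adjusted p = 0.235), and the measured difference ran from 0.19 to 0.59 over the alternatives. Both probes lie close to the detection limit of the arrays, which ranged from -4.70 to -4.06.

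Regions with more probes leaned more to lower values. Among the 951 regions of 1 probe the median difference was 0.02, with 47 higher and 44 lower at an unadjusted p under 0.05. Among the 800 regions of 2 to 4 probes it was -0.02 with 32 higher and 83 lower, and among the 269 regions of 5 or more probes -0.07 with 2 higher and 41 lower. At the same threshold 6.29% of all rows were higher and 6.54% lower, and of all regions 4.01% and 8.32%. The standard error was smaller in larger regions, with a median of 0.13 in regions of 1 probe and 0.09 in regions of 5 or more. The median of regions of 5 or more probes was below that of regions of 1 probe in the main fit and in all 19 alternatives that keep the regions, and lay between -0.09 and -0.02 in those alternatives. In those, 0 to 11 such regions were higher and 22 to 54 lower. Probes of one region did not always move together. Of 706 regions with 3 or more probes, 315 (44.6%) had all probes on one side of 0, 206 of them lower and 109 higher. Within these regions the probe differences had a median SD of 0.13, and the region differences an SD of 0.22.

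**Figure D2:**
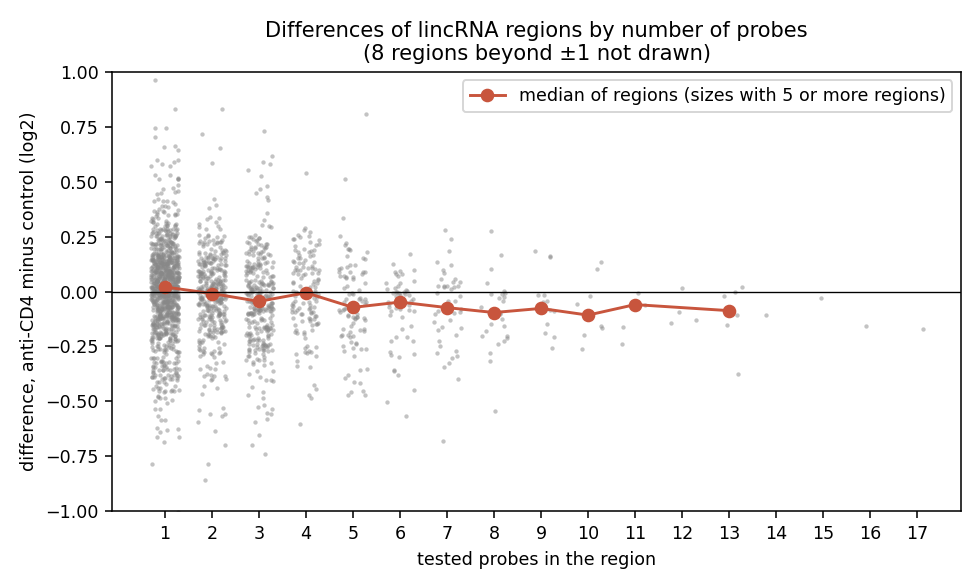
Difference of each region (anti-CD4 minus control, log2, vertical axis) against its number of tested probes. Grey points are regions, 8 regions beyond 1 in either direction are not drawn, and red points are medians. Medians lie close to 0 in regions of 1 probe and below 0 in regions of 5 or more.

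The GC content of the probe moved with the direction of the difference. LincRNA probes with 35% to 40% GC had a median difference of -0.08, with 2.65% higher and 15.7% lower at an unadjusted p under 0.05. Those with 60% GC or more had a median of 0.07, with 9.17% higher and 1.83% lower. Other probes at 35% to 40% GC had a median of 0.01 and at 60% or more 0.08, so the classes lay closer at high than at low GC. The array-wise slope over lincRNA probes was -0.09 per 10 percentage points of GC on control 2 and between -0.03 and 0.05 on the other 7 arrays, so control 2 stood apart. Without control 2 the counts were 58 higher and 155 lower regions, with a median of -0.04. Regions of 5 or more probes had a median GC of 42.2% against 45% in regions of 1 probe. Within regions under 45% GC the medians were -0.02, -0.07 and -0.08 for 1, 2 to 4 and 5 or more probes, and within regions of 45% GC or more 0.03, 0.02 and -0.03. After each array was corrected for probe GC over all tested probes, 79 regions were higher and 180 lower.

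**Figure D3:**
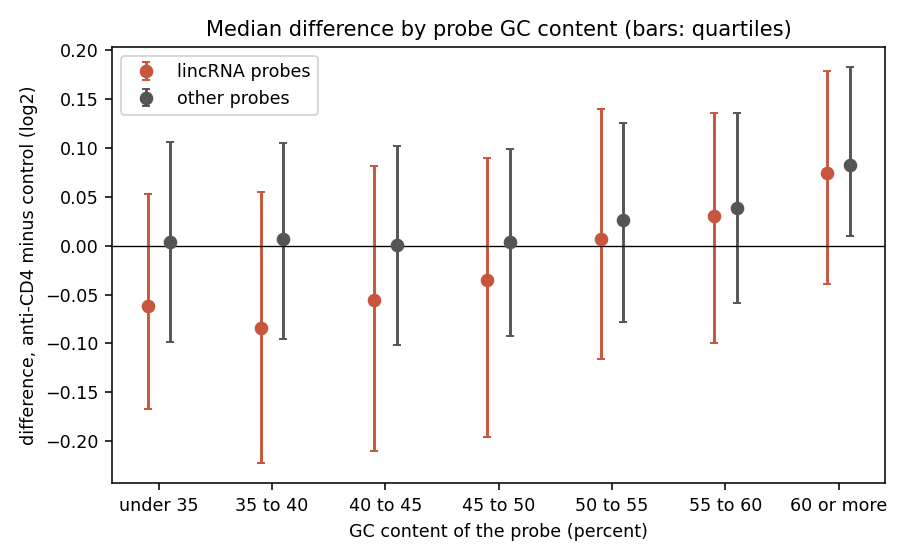
Median difference (anti-CD4 minus control, log2) of 4947 lincRNA probes (red) and 24459 other probes (grey) in 7 classes of probe GC content, with bars from the lower to the upper quartile. The other probes include the few lincRNA probes left out of the regions. LincRNA medians go from -0.08 at 35% to 40% GC to 0.07 at 60% or more, while other probes lie near 0 below 50%.

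The high-GC end is shown by the 3 probes of the higher region on chromosome 6, and the low-GC end by 2 more probes of the lower region on chromosome 1.
chr6:90937667-90937726 (-): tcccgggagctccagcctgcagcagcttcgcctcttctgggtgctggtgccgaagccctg
chr6:90938089-90938148 (-): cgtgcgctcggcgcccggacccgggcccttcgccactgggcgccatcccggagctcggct
chr6:90938329-90938388 (-): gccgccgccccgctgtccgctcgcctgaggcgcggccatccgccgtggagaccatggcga
chr1:139856842-139856901 (+): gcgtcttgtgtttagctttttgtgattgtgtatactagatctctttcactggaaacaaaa
chr1:139857024-139857083 (+): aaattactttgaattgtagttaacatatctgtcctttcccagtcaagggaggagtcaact

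Regions at noncoding RNA genes of known function did not pass the threshold. They were named for their many probes, and of all 269 regions of 5 or more probes 190 lay below 0. The region inside Malat1 (chr19:5795713-5802326, -, 10 probes), the speckle RNA that is among the most abundant in neurons, was at 4.03, 4.08, 4.07 and 3.77 in control and 3.89, 3.61, 3.86 and 3.54 in anti-CD4 samples. The groups overlapped, with a difference of -0.26 ± 0.11 (adjusted p = 0.362), and 9 of 10 probes were lower. The Malat1 gene probe differed by -0.49 (adjusted p = 0.27). The region inside Neat1 (chr19:5834543-5842845, -, 8 probes), the paraspeckle scaffold, went from 0.17 ± 0.16 to -0.06 ± 0.20 (SD, n = 4), a difference of -0.23 ± 0.12, and all 8 probes were lower. On the opposite strand at the same locus the 6 probes of chr19:5842428-5845243 (+) gave 0.00 ± 0.06.

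The region of Tug1 (chr11:3538865-3548764, -), a noncoding RNA first described in the retina, held 17 probes, the most of any region. Control samples were at -0.75, -0.70, -0.87 and -0.77 and anti-CD4 samples at -0.90, -0.92, -0.97 and -0.98, so the groups did not overlap, with a difference of -0.17 ± 0.06 (adjusted p = 0.321). Its probes ran from -0.81 to 0.18, and 14 of 17 were lower. The 7 probes of the opposite strand (chr11:3547179-3548770, +) gave 0.13 ± 0.11, with 6 of 7 higher, although its brightest probe gave -0.19. The region of Pvt1 (chr15:62074025-62095947, +, 16 probes), the neighbour of Myc, also separated the groups, from -1.09 to -0.99 in control and from -1.32 to -1.10 in anti-CD4 samples, a difference of -0.16 ± 0.07 (adjusted p = 0.382). Of its 16 probes 15 were lower.

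The named regions near the transcription factor genes Pou3f3 and Zbtb20 had overlapping groups. Pantr1 is transcribed next to Pou3f3, a neural transcription factor gene, and its region (chr1:42705046-42705615, -, 10 probes) was at 1.85, 2.03, 1.96 and 1.82 in control and 1.89, 1.42, 2.04 and 1.54 in anti-CD4 samples. Anti-CD4 samples 2 and 4 were low and samples 1 and 3 were within the control range (difference -0.20 ± 0.14). The region 19386 bases downstream of the probe of Zbtb20 (chr16:43638475-43642004, +, 13 probes), a transcription factor of CA pyramidal neuron identity, had the same order of anti-CD4 samples, at 2.05, 1.32, 2.19 and 1.53, against 1.93, 2.53, 2.10 and 2.03 in control. All 13 probes were lower, from -0.54 to -0.22, and the Zbtb20 probe differed by -0.47, but the error was 0.21 (difference -0.37, adjusted p = 0.481). The 6 dentate granule neuron markers had a median difference of -0.38 and the CA pyramidal markers of -0.17, and their part in these regions was not tested.

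On the imprinted domain of chromosome 12, which carries Meg3, Rian and Mirg, the plus-strand regions chr12:110896272-110923230 (8 probes) and chr12:110981965-110986503 (13 probes) differed by -0.24 ± 0.10 and -0.15 ± 0.11, and the minus-strand region chr12:110974641-110983505 by 0.01 ± 0.17. Regions beside C130071C03Rik and Oip5os1 differed by -0.04 ± 0.10 and -0.09 ± 0.16, within their errors. Of 38 characterised lncRNA genes, 27 were measured by probes of their own, with a median difference of -0.14. Above 0 were 8, and at an unadjusted p under 0.05 there were 1 higher and 4 lower, or 18.5% against 12.8% of all rows, and none after adjustment. Over all 679 probes of annotated lncRNA genes the median was 0.00, and over 20045 probes of protein-coding genes 0.01.

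**Figure D4:**
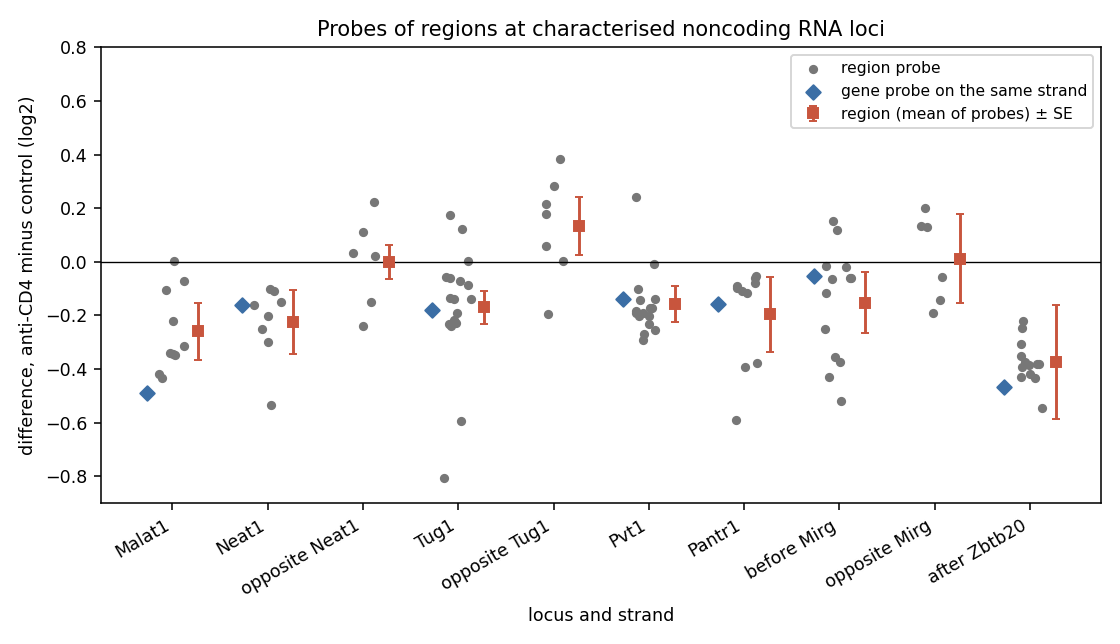
Differences (anti-CD4 minus control, log2) at 10 regions of noncoding RNA loci. Grey points are single probes, red squares the region with its SE, and blue diamonds the gene probe on the same strand where one was measured. Probes on the strand of Malat1, Neat1, Tug1, Pvt1, Pantr1 and Zbtb20 lie mostly below 0, and the regions opposite Neat1, Tug1 and Mirg lie around or above it.

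Strand was resolved at many loci. Of 3552 design domains, 1061 had probes for both strands, and of those 368 had members on both, 210 on the plus strand alone, 246 on the minus strand alone and 237 on neither. Of the regions, 305 overlapped a region of the other strand. The pair with the most probes on its fewer strand lay between Jmy, which encodes a p53 cofactor, and Homer1, which encodes a postsynaptic scaffold protein. Its minus-strand region (chr13:94187890-94201213, 15 probes) differed by -0.03 ± 0.06 and its plus-strand region (chr13:94182515-94203922, 14 probes) by -0.11 ± 0.09. At the ribosomal RNA locus the strands differed by 0.10 ± 0.07 (plus) and 0.13 ± 0.11 (minus). The strands at Borcs8 gave 0.02 ± 0.06 on the gene's strand (chr8:72665765-72672515) and 0.19 ± 0.08 opposite (chr8:72665761-72669415), with an unadjusted p of 0.0545 for the latter. At Pura, which encodes a neuronal DNA- and RNA-binding protein, they gave -0.09 ± 0.08 on the gene's strand and -0.01 ± 0.09 opposite. The differences between strands were not tested.

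Regions were also placed by the nearest named gene probe. A same-strand gene probe lay within 10 kb of 513 regions, whose median difference was -0.05, with 18 higher and 55 lower at an unadjusted p under 0.05 (14.2% in all, against 12.8% of all rows). A gene probe on the opposite strand only lay within 10 kb of 273 regions (median 0.01, 9 higher and 20 lower, 10.6% in all). The 1234 regions with no gene probe within 10 kb had a median of 0.01, with 54 higher and 93 lower (11.9%). These shares of both directions together are near the background. In each class lower regions outnumbered higher ones, while over all rows 6.29% were higher and 6.54% lower.

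Some probes covered microRNA genes, matched by the mature sequences of RefSeq (GRCm38.p6). Of 6 eligible probes that hold a whole mature sequence in sense, 3 were members. They are shown with the mature part in capitals, each followed by the mature sequence with its seed (bases 2 to 8) in capitals.
miR-410-3p probe, chr12:110981965-110982024 (+): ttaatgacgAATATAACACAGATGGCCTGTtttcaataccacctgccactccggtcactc
mature miR-410-3p: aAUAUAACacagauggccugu
let-7c-5p probe, chr15:85537022-85537081 (+): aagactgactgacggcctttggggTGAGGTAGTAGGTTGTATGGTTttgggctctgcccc
mature let-7c-5p: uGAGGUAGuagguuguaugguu
let-7a-1-3p probe, chr15:85537092-85537151 (+): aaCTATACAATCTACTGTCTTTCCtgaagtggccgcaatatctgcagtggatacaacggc
mature let-7a-1-3p: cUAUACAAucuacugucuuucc
The miR-410-3p probe lies in the plus-strand region of Mirg, which hosts a large microRNA cluster. Its control samples were at -2.60, -2.73, -2.72 and -2.72 and its anti-CD4 samples at -2.94, -2.83, -2.24 and -2.85, a difference of -0.02 ± 0.15. The other 2 probes lie in chr15:85533269-85542520 (+), the locus of Mirlet7c-2, whose 7 probes together differed by -0.16 ± 0.10. The let-7c-5p probe, with a seed shared by the whole let-7 family, differed by -0.22 ± 0.21. The third probe holds letters that let-7a-1-3p and let-7c-2-3p share. It was well above background on 3 control and 2 anti-CD4 arrays, at -3.75, -1.35, -2.39 and -4.04 in control and -3.31, -4.35, -3.68 and -4.23 in anti-CD4 samples. Control samples 2 and 3 stood above the rest, and the difference of -1.01 ± 0.56 had an adjusted p of 0.477. Probes with miR-363-3p, miR-92a-2-5p and miR-8120 were not well above background on any array.

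Some probes ran through promoters, in sense or antisense. Whole probes were matched to RefSeq promoter windows (GRCm38.p6). Of 86 eligible probes antisense to the gene, 32 (37.2%) were members, against 18 of 79 (22.8%) in sense and 30.8% of all eligible probes, and the difference between these shares was not tested. The median difference was 0.07 over the 32 antisense and 0.09 over the 18 sense members, and 23 of the 32 lay above 0. Of all eligible lincRNA probes with 60% GC or more, 55.1% were members, with a median difference of 0.07. At 55% to 60% GC these values were 35.8% and 0.03. The promoter probes were not matched for GC content, and its part in these values was not tested. Antisense members lay at Dcun1d1, Iqsec1, Pitpnm2, Tgif2, Zfp553, Shoc2, Fbrs and the small nucleolar RNA host gene Snhg17. The stretch before the start of Dcun1d1, which encodes a component of neddylation ligases, is shown as the gene's strand reads it, with the part that the antisense probe covers in capitals (chr3:35932917-35933216 on the minus strand is the full window of GRCm38.p6).
Dcun1d1 upstream: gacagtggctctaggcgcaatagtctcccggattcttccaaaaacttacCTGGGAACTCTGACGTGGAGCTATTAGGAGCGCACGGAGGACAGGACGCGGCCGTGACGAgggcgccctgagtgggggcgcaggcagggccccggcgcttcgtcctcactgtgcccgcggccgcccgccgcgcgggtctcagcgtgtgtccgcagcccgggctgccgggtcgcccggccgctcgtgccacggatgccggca
The probe lies from base -201 to -142 before the start and was at 1.67, 1.58, 1.76 and 1.70 in control and 1.98, 2.13, 1.80 and 2.08 in anti-CD4 samples. The groups did not overlap, with a difference of 0.32 ± 0.09 (adjusted p = 0.245). The antisense probe at Zfp553 gave -0.42, so members of this class lay on both sides of 0.

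Over all regions the SD over 8 arrays had a median of 0.19, and in 15 regions it was above 1. The groups overlapped in 14 of the 15, and the other was chr18:60915318-60915377 (+), described above. Of the 15, 9 were high on control sample 4 and anti-CD4 samples 1, 2 and 4. The region chr5:15168324-15168564 (+, 4 probes) was at -4.81, -4.57, -3.78 and -0.51 in control and -1.05, -0.85, -4.63 and 1.31 in anti-CD4 samples. The region chr4:3009786-3009845 (-), well above background on 1 control and 3 anti-CD4 arrays, was at -6.55, -6.52, -6.50 and -3.72 and at -2.78, -2.38, -5.34 and -1.55. Its difference of 2.81 ± 0.90 was the largest of any region, with an adjusted p of 0.281 and overlapping groups. The probes of chr16:3116103-3116162 (-) and of chr18:3005435-3005706 (-) followed the same arrays, and their differences were 0.75 ± 1.28 and 0.42 ± 1.06. These patterns were found after the values were seen.

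A further 4 of the 15 were high on control samples 1 and 4 and on anti-CD4 samples 2, 3 and 4. The region chr8:67554789-67554848 (+), 2182 bases from the probe of Apela on the other strand, was at -0.14, -6.53, -6.52 and -0.43 in control and -6.26, -1.12, 0.46 and -1.05 in anti-CD4 samples. The region chr14:49412903-49413023 (+), 73492 bases from the probe of Otx2os1, which lies beside the choroid plexus factor gene Otx2, was at -2.10, -6.50, -6.40 and -2.35 and at -6.58, -3.23, -1.48 and -2.75. The probe of Ttr, the main secreted protein of the choroid plexus, was at 8.16, 2.72, -0.46 and 8.26 in control and 1.22, 7.60, 8.48 and 7.75 in anti-CD4 samples, high on the same 5 arrays. The part of choroid plexus in these regions was not tested. The differences between the groups, 1.41 ± 1.94 and 0.83 ± 1.37, were smaller than their errors.

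Several of the most variable regions share sequence, so they are not independent of each other. Over the members, 59 pairs of probes more than 10 kb apart shared a run of 30 or more bases, 6 of them in opposite orientation, and 72 regions held such a probe. Of the 15 most variable regions, 6 were among those 72. The named regions chr5:26382314-26382433 (+) and chr1:87351659-87351718 (+) were among the 72 too. The chromosome 16 pair is assigned to opposite strands of both positions, and each pair is shown with the differing bases in capitals.
chr16:3116103-3116162 (-): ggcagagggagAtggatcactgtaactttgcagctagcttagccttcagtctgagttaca
chr16:3350426-3350485 (+): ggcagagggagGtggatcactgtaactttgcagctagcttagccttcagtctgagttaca
chr5:15168385-15168444 (+): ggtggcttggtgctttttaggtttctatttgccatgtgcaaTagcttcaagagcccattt
chr5:14943980-14944039 (+): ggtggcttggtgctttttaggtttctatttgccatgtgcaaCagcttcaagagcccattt
chr5:15168505-15168564 (+): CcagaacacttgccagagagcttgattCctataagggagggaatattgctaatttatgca
chr5:14944100-14944159 (+): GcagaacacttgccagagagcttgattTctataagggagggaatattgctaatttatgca
The first pair differs at 1 of 60 bases (A12G, counted from the 5′ end of the first probe), the second at 1 (T42C) and the third at 2 (C1G and C28T). At this identity a probe cannot tell its position, or the strand given by its position, from that of its copy. The last 2 copies lie in chr5:14937825-14944159 (+), whose 5 probes split. The 2 copied probes differed by 2.06 and 3.28, and the other 3 by -0.57 to -0.34, so the region's 0.81 ± 0.54 averaged over both. Without the 72 regions, the 1948 others gave 78 higher and 162 lower at an unadjusted p under 0.05.

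**Figure D5:**
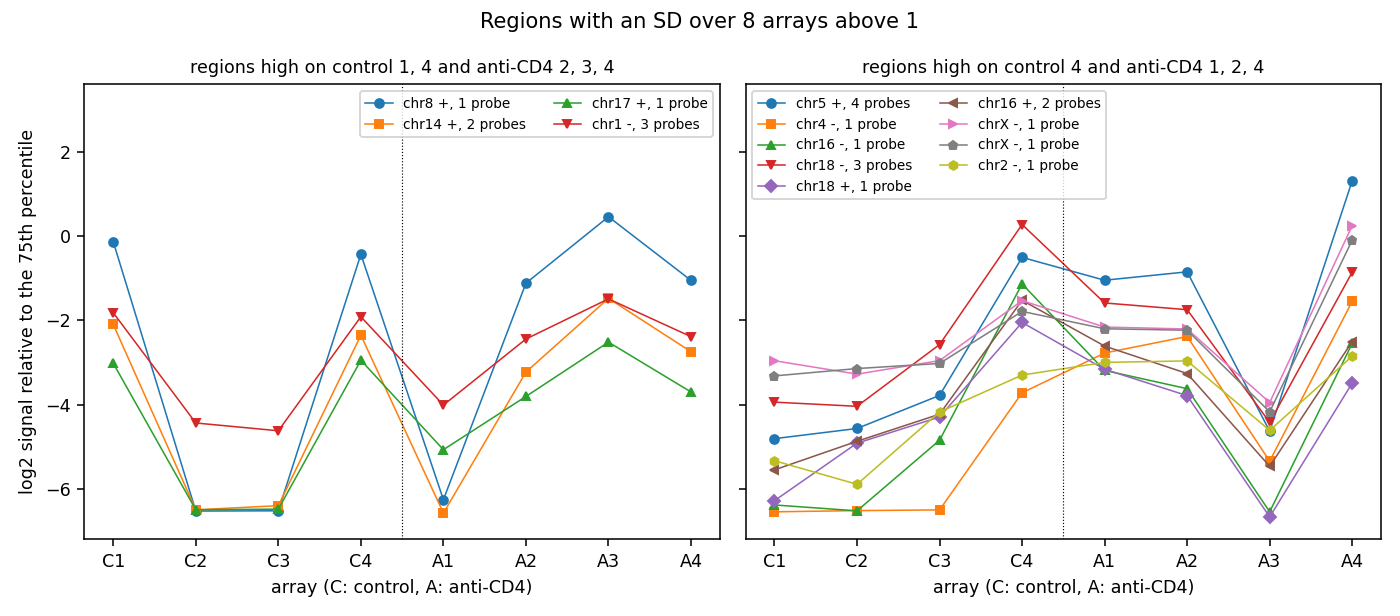
Log2 signal relative to the 75th percentile of 13 regions whose SD over 8 arrays was above 1, by array (C control, A anti-CD4). The 4 regions on the left are high on control 1 and 4 and anti-CD4 2, 3 and 4, and the 9 on the right on control 4 and anti-CD4 1, 2 and 4.

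The genes whose products terminate and degrade such transcripts were listed too. Of 49 genes of nuclear RNA surveillance and 3′ end processing, among them subunits of the RNA exosome, 48 were measured. Their median difference was -0.03, with 0 higher and 2 lower at an unadjusted p under 0.05, or 4.17% against 12.8% of all rows, and none after adjustment. The canonical polyadenylation signal AATAAA was present in 4.51% of member probes and in 3.94% of all eligible probes, and its reverse complement TTTATT in 2.91% and 2.99%. Member shares in 4 equal parts of the design domain, from its 5′ end, were 33.6%, 29.9%, 28.7% and 31.0%. By chromosome the median difference of regions ran from -0.05 on chromosome 18 to 0.02 on chromosome 19.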

How the data were processed

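Total RNA of 8 hippocampus samples (4 control antibody, 4 anti-CD4) was measured on one-colour arrays. The deposited scanner files hold spot intensity made with Feature Extraction 10.7.3.1, per the file headers, which had subtracted background and detrended each array, with no normalization between arrays. A further table deposited by the authors holds log2 values of the same arrays and served as an alternative. limma is the tool named for it in the submitters' processing notes; no other step is stated there. Log2 processed signal minus the 75th percentile of the array was averaged over spots of a probe, then over probes of a region. Probes well above background on 4 of 8 arrays were kept. limma 3.58.1 (R 4.3.3) compared the groups over all rows, with lmFit, eBayes and Benjamini-Hochberg adjustment, and the script was tested on simulated data. The precision is limited by 4 arrays a group. The members, gene lists and tests were chosen with earlier results of these data known.

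Named regions were those past an adjusted p of 0.05 (at most 12 a direction), filled to 8 a direction by the smallest p among regions whose groups do not overlap; the 8 with most probes; the 6 of largest SD; the 5 opposite-strand pairs with most probes on the fewer strand; up to 10 regions with most probes within 50 kb of a listed lncRNA or transcription factor gene; and up to 4 detected in one group only. Other features were chosen after their values were seen: the 15 regions with an SD above 1, the microRNA and promoter matches, the copied probes and the regions on chromosomes 15 and 5 that hold them. Alternatives covered scaling, background correction, the authors' table, filters, joining distance, brightest probe, a replicate block, eBayes settings, array weights and each array left out. A Ttr covariate, a GC correction and leaving out copied regions were added after seeing the data.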

Additional observations from a re-analysis of the deposited data

Results flagged for a closer look

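Among the 88 group values of the 44 named regions, 8 had one sample whose gap to the nearest other sample was unusually wide for a group of 4, and chance alone gives about 1 in 20. Control sample 4 was high at chr4:3009786-3009845 (-), at -3.72 against -6.50 for the next. Control sample 1 was high at chr12:110896272-110923230 (+), at -0.27 against -0.57, and at chr5:26382314-26382433 (+), at -2.50 against -2.67. Anti-CD4 sample 3 was low on the plus strand of the ribosomal RNA locus, at 4.22 against 4.4, and at chr16:32325974-32326033 (-), at 2.73 against 2.85. Anti-CD4 sample 4 was high at chr6:135299753-135299812 (-), at -1.77 against -1.84, and in the Pura region (chr18:36450392-36456800), at 1.0 against 0.88. Anti-CD4 sample 1 was high at chr1:87351659-87351718 (+), at -2.13 against -2.26.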

How the results depend on the processing

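At an adjusted p of 0.05 the count of regions was 0 under every alternative except without anti-CD4 sample 3, where it was 1, and the count of probes was 0 throughout, while at an adjusted p of 0.1 there was 1 region and no probe in the main setting, and 0 to 5 regions and 0 to 16 probes in the alternatives, highest without anti-CD4 sample 3. Regions with an unadjusted p under 0.05 numbered 249, and between 177 and 291 when each sample was left out (higher 53 to 125). The share of higher among them was 32.5%, and 26.6% to 50.8% when each sample was left out, lowest without anti-CD4 sample 1 and highest without control sample 3. It was 56.5% with median centring (139 of 246), 46.3% with quantile normalization, 47.8% with normexp, 41.2% in the authors' table, 25.1% without the filter on dim probes and 39.7% with the brightest probe. Without joining, 4947 single probes gave 750, of them 218 higher and 532 lower, and without the filter there were 3887 regions. The median difference of -0.010 ran from -0.042 to 0.008 when each sample was left out. The replicate numbers did not pair the samples: deviations of same-numbered samples over lincRNA probes correlated at -0.23, -0.20, -0.09 and 0.38, and with the replicate block 80 regions were higher and 161 lower, or 241 in all.

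Of the 44 named regions, 34 kept their sign throughout. Where the groups do not overlap, as the rule required for many of these, leaving out a sample could not change the sign. For those regions only the other alternatives could have changed it. Some regions that changed sign were close to 0 in the main setting. The chromosome 14 region was at 0.83, chr16:3116103-3116162 (-) at 0.75 and chr18:3005435-3005706 (-) at 0.42, with wide errors. The region opposite Tug1 and the minus strand of the ribosomal RNA locus were both at 0.13. The cause of each change was not tested. The region opposite Neat1 turned to 0.033 with median centring, 0.000948 with the percentile of detected probes, 0.018 with quantile normalization, 0.024 with normexp, 0.0034 in the authors' table and 0.022 with the brightest probe, and ran from -0.036 to 0.019 when each sample was left out. With median centring the Jmy region gave 0.0063 and the region opposite Pura 0.019 (-0.072 to 0.028 when each sample was left out). The C130071C03Rik region gave 0.026 with normexp, 0.018 in the authors' table and 0.00893 with the Ttr covariate (-0.12 to 0.0086). The region opposite Mirg gave -0.14 with the brightest probe and -0.000789 after GC correction (-0.098 to 0.13). The brightest probe gave -0.027 on the minus strand of the ribosomal RNA locus and -0.19 opposite Tug1. The chromosome 16 region at 3116103 gave -0.11 in the authors' table, the chromosome 14 region -0.078 with the Ttr covariate, and chr18:3005435-3005706 ran from -0.072 to 1.37 when each sample was left out.

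With 4 arrays a group, small differences near the detection limit are the least certain. On simulated data at this size, between 80 and 86 of 100 rows changed by 1 on the log2 scale were called, and between 39 and 50 of 100 changed by 0.5. The simulated noise was normal and independent between rows, and the calls also depend on how many rows were changed. These counts test the script and are not the share of real changes that would be found here.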
